A study of Mus musculus with 15 samples.

Results

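Ventricles in which CELF2 had been induced for 7 d were compared with control ventricles, together 6 of the 15 hearts of a doxycycline time course. The comparison covered the 10638 of 16199 genes whose mean over these 6 hearts was at least 1 RPKM. RPKM is a read count scaled to the length of the coding sequence and to the size of the library. Members were thus chosen by their level over both groups, so a gene low in 1 group could enter through the other. Both groups were FVB mice of 14 to 16 weeks that carried MHCrtTA, a doxycycline-dependent activator under a myosin heavy chain promoter, which acts in cardiomyocytes. The 3 mice of the 7 d group were labelled MHCrtTA/TRECUGBP2, which adds a doxycycline-responsive human CELF2 transgene, and ate 2 g/kg doxycycline chow for 7 d. The 3 control mice had the activator alone and ate 2 g/kg doxycycline chow for 72 h, so that the transgene and the length of feeding differed together and cannot be told apart. A supplemental animal table lists 6 g/kg in place of 2 g/kg. A Celf1 cassette also named in the labels of induced hearts, and a design text about Celf1 in gastrocnemius, are at odds with the titles, the genotypes and the tissue given for these hearts. Each heart was a separate animal, and p-values measure the spread between animals.

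CELF2 is a member of the CUGBP Elav-like family, RNA-binding proteins that regulate alternative splicing in the nucleus and the stability and translation of mRNA in the cytoplasm. CELF proteins fall in abundance as the heart matures and rise in myotonic dystrophy, and muscleblind-like (MBNL) proteins often act on the same transcripts in the other direction. Hypertrophic or failing ventricle re-expresses natriuretic peptides and skeletal alpha-actin, the customary mRNA markers of cardiac stress. The study reports no heart pathology in the CELF2 line. Its induced mice gave no sign of altered ECG, echocardiography, heart size or heart shape, after a longer induction than that compared here. Whether changes of these markers went with altered heart function was not tested.

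The 6 libraries were not balanced in 2 respects. Titles carry a numeric code of unstated meaning, by which the control hearts held 1 heart of code A and 2 of code B, and the 7 d hearts 1 of code A and 2 of code C. Y-linked mRNA was found in 1 of 3 control hearts and 3 of 3 hearts at 7 d. Among the genes called higher at 7 d (below), the median log2 change was 0.60 over all hearts, 0.61 between the code A hearts of the groups and 0.55 against the control heart with Y-linked mRNA, and among those called lower it was -0.64, -0.66 and -0.64, in hearts that also made the calls. Between 1707 and 1731 genes were listed at 0 in a control heart and between 1513 and 1937 in a 7 d heart. Ventricular cardiomyocyte markers gave 2 higher and 3 lower of 12 tested and summed to 57985 to 60002 RPKM in control hearts and 54927 to 57375 RPKM at 7 d. The skeletal muscle regulators Myod1, Myog and Myf6 were below 0.1 RPKM in all 6 hearts, and the skeletal muscle list had none of 9 tested genes called by limma (1 at an unadjusted p below 0.05).

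The induced gene rose more than any other. Celf2 (chr2:6460751-7002348, minus strand, mm9) was at 8.54, 11.3 and 9.64 RPKM in the control hearts and 359, 353 and 261 RPKM at 7 d, and the lowest 7 d heart stood far above the highest control heart. The ratio of means was 33.05 ± 7.247 (SD, n = 3 and 3) and was 42.03 between the code A hearts. An exact two-sided permutation test gave p = 0.1, which no comparison of 3 with 3 hearts can go below. Reads were counted on the mouse gene, which does not separate the human transgene from endogenous Celf2. Celf1, the closest relative of Celf2, fell from 22.6, 24.4 and 24.5 RPKM in the control hearts to 12.9, 11.8 and 8.5 RPKM at 7 d, with no overlap between the groups (log2 change -1.09 ± 0.21, adjusted p = 0.005; log2 changes are on the log2(RPKM + 0.5) scale and given with their standard error). Celf1 already averaged 8.92 ± 2.31 RPKM (SD, n = 3) after 72 h. Mbnl1, a splicing regulator of mature muscle, was at 25, 23.4 and 19.5 RPKM in the control hearts and 33.7, 30.1 and 22.4 RPKM at 7 d and did not pass (log2 change 0.33 ± 0.28, adjusted p = 0.53). Mbnl2 was at 33.2, 42.6 and 42.2 RPKM in the control hearts and 51.2, 52.5 and 44.5 RPKM at 7 d and did not pass (log2 change 0.33 ± 0.13, adjusted p = 0.14). Celf3, Celf4, Celf6 and Mbnl3 stayed at or below 0.16 RPKM in every heart and were not tested. The genes that the study names had none of 10 tested genes called by limma (3 at an unadjusted p below 0.05), with log2 changes from -0.35 (Clcn1, a chloride channel) to 0.33 (Mbnl2). The study's text names them for splicing, RNA binding, isoforms or CELF1 induction, and not for gene levels after CELF2 induction.

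Across all 10638 genes, 1083 (10.2%) differed between 7 d and control hearts at an adjusted p below 0.05 by limma, of which 642 were higher (6.03%) and 441 lower (4.15%) at 7 d. The share of calls that were higher was 59.3%, and 46.7% under upper-quartile scaling between hearts. With the minimum level taken over all 15 hearts, 616 genes were called higher and 439 lower. Most changes were modest, with a median size of 0.61 on the log2 scale among called genes, and 67 genes rose and 74 fell at least 2-fold. The median log2 change of all genes was 0.03 and their median standard error 0.16. Calls were more frequent among abundant mRNAs, from 8.44% of 3390 genes below 5 RPKM to 13.0% of 608 genes at 100 RPKM or more, where the median standard error was smaller (0.178 and 0.122). The hearts of the groups did not overlap for 1961 genes in the higher direction (18.4%) and for 1410 in the lower direction (13.3%). Counts of called list members below are to be read against 6.03% higher and 4.15% lower. Members whose hearts did not overlap are to be read against 18.4% and 13.3%. The calls of 43 higher and 56 lower genes held under every one of up to 19 alternative settings in which the gene was tested. Of 205 called genes in the lists or among the largest changes, 37 kept their call in this way. With Y-linked mRNA as a covariate 235 of the 642 and 162 of the 441 calls were kept, and with the title code 409 and 385. Codes B and C coincide with the groups and cannot be told apart from them, and the part of Y-linked mRNA was not tested further.

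**Figure D1:**
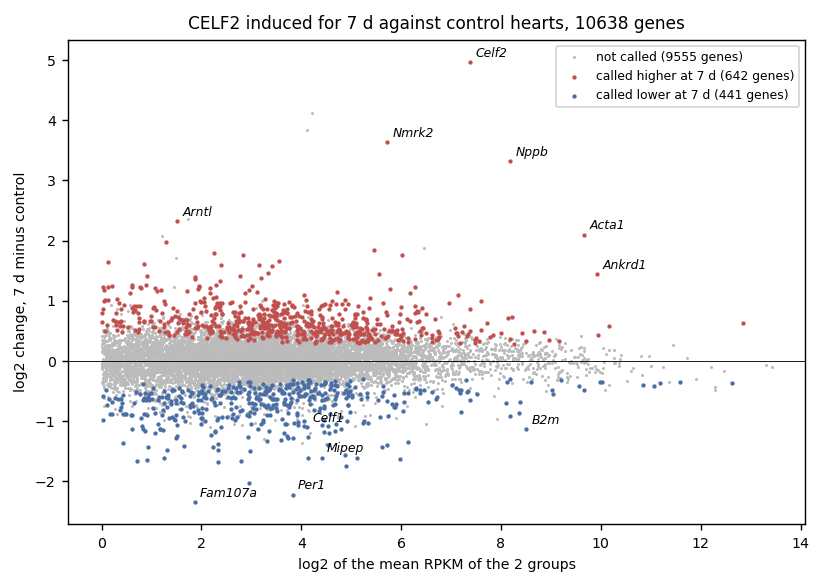
Each point is 1 of 10638 genes, placed by the log2 of its mean RPKM in both groups and by its log2 change at 7 d relative to control hearts. Red points (642) were called higher and blue points (441) lower at an adjusted p below 0.05, grey points were not called, and Celf2 at 4.97 lies above every other gene.

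The largest increases after Celf2 among called genes were those of Nmrk2, Nppb, Arntl and Acta1. Nmrk2, a muscle nicotinamide riboside kinase (chr10:80660915-80664782, minus strand, mm9), was at 10.9, 7.64 and 4.59 RPKM in the control hearts and 81.2, 121 and 90.8 RPKM at 7 d, a log2 change of 3.64 ± 0.27 (adjusted p = 2.7e-06). Nppb, which encodes brain natriuretic peptide (chr4:147359897-147361314, plus strand, mm9), was at 61.1, 49.8 and 46.5 RPKM in the control hearts and 637, 538 and 416 RPKM at 7 d (log2 change 3.31 ± 0.20, adjusted p = 3.8e-07). For both genes each 7 d heart exceeded all control hearts several-fold. Levels of Arntl, the BMAL1 subunit of the clock activator, were 0.83, 0.53 and 0.51 RPKM in control hearts against 4.54, 5.02 and 5.7 RPKM at 7 d (log2 change 2.32 ± 0.19). Acta1, skeletal alpha-actin, measured 191, 393 and 362 RPKM in the controls and 1032, 1342 and 1550.5 RPKM after 7 d (log2 change 2.10 ± 0.27). The code A control heart had the least Acta1. Gdf15, a stress-induced cytokine, went from 1.91, 1.79 and 1.76 RPKM without induction to 6.99, 10.4 and 5.93 RPKM at 7 d (log2 change 1.80 ± 0.25). Tnfrsf12a, the receptor of the cytokine TWEAK, rose from 21.2, 35.8 and 30.6 RPKM in the control hearts to 78, 131 and 92.5 RPKM at 7 d (log2 change 1.76 ± 0.27). In none of these 6 genes did the groups overlap.

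Other large increases concerned mRNAs of low to moderate level. Levels of Colq, the collagen-like tail of acetylcholinesterase, were 2.74, 2.71 and 3.5 RPKM in control hearts against 9.4, 11.5 and 12.9 RPKM at 7 d (log2 change 1.75 ± 0.15). Itpr1, an inositol trisphosphate receptor that releases stored calcium, measured 6.4, 5.98 and 3.82 RPKM in the controls and 20.9, 20.8 and 12.6 RPKM after 7 d (log2 change 1.65 ± 0.30). Ankrd2, a stretch-responsive ankyrin repeat protein, went from 0.24, 0.32 and 0.24 RPKM without induction to 1.58, 1.78 and 2.37 RPKM at 7 d (log2 change 1.64 ± 0.15). At levels below 1 RPKM, as for Ankrd2 in control hearts, the log2(RPKM + 0.5) scale understates the change. Arntl, Ccdc63, Ankrd2 and Cks2 averaged below 1 RPKM in control hearts and entered the comparison through their 7 d levels. Cks2, a subunit of cyclin-dependent kinases, rose from 0.19, 0.97 and 0.82 RPKM in the control hearts to 2.06, 2.79 and 3.95 RPKM at 7 d (log2 change 1.60 ± 0.36, adjusted p = 0.012). Control heart 1 was the lowest for Cks2, and its call was lost without that heart or without the third 7 d heart. Levels of Scgb1c1, a secretoglobin, were 21, 15.7 and 19.9 RPKM in control hearts against 55.7, 82.5 and 70.2 RPKM at 7 d (log2 change 1.85 ± 0.23). Tmem171 measured 3.04, 1.7 and 2.38 RPKM in the controls and 7.07, 9.41 and 7.81 RPKM after 7 d (log2 change 1.60 ± 0.18). B4galt6, a lactosylceramide synthase, went from 4.44, 4.09 and 3.98 RPKM without induction to 13.2, 13.5 and 14.2 RPKM at 7 d (log2 change 1.60 ± 0.21). The control and 7 d hearts lay apart for all of these genes. Ccdc63 rose from 0.78, 0.81 and 0.51 RPKM in the control hearts to 3.56, 4.4 and 4.62 RPKM at 7 d (log2 change 1.97 ± 0.18). Its annotated locus overlaps Myl2, the ventricular regulatory light chain, on the opposite strand, and whether the counting used strand is not stated. Myl2 was at 11575, 10404 and 9049.9 RPKM in the control hearts and 10899.9, 9685 and 8958 RPKM at 7 d (log2 change -0.07, adjusted p = 0.79).

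**Figure D2:**
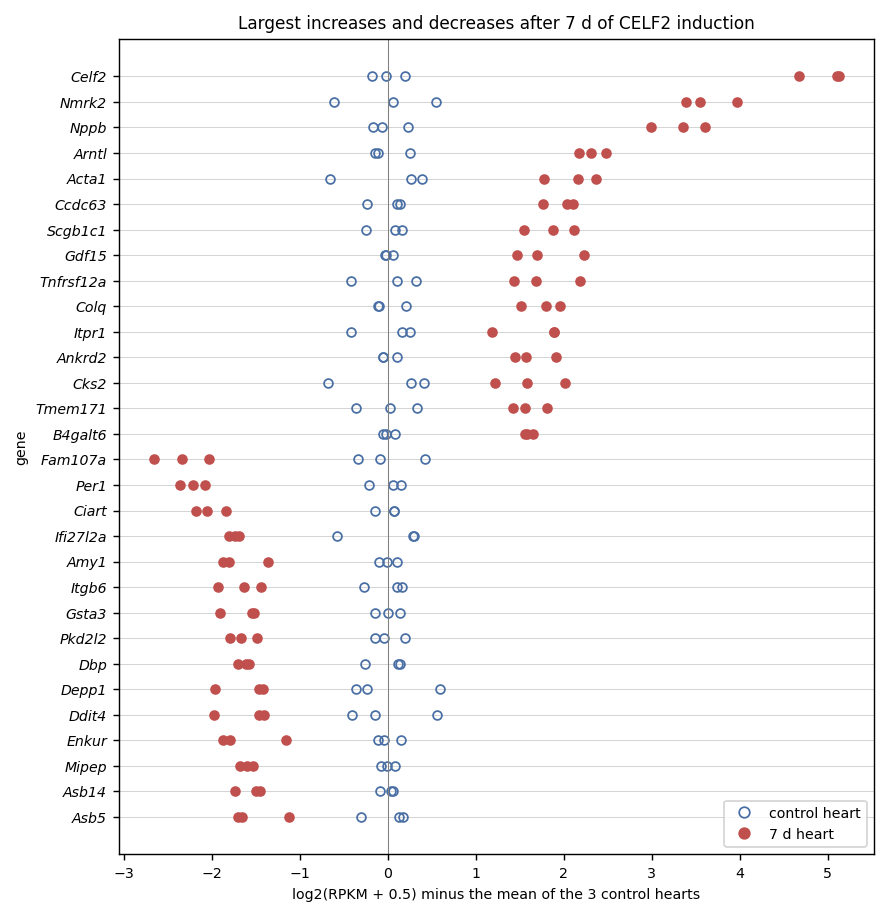
Each row is 1 of the 15 genes with the largest increases and the 15 with the largest decreases among called genes, and the horizontal axis gives log2(RPKM + 0.5) of a heart minus the mean of the 3 control hearts. Open blue circles are control hearts and filled red circles 7 d hearts, which lie apart in every row because the genes were chosen for that.

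Several of the largest decreases had very little spread between hearts. Mipep, a mitochondrial intermediate peptidase that trims imported precursors (chr14:61403403-61524315, plus strand, mm9), was at 30.6, 34.1 and 32.2 RPKM in the control hearts and 10.8, 9.74 and 10.3 RPKM at 7 d (log2 change -1.60 ± 0.10, adjusted p = 3.8e-07). Levels of Asb14, a substrate adaptor of cullin ubiquitin ligases, were 45.8, 41 and 44.9 RPKM in control hearts against 15.2, 15.8 and 12.8 RPKM at 7 d (log2 change -1.56 ± 0.11, adjusted p = 2.1e-06). Asb5, of the same family, measured 12.8, 9.36 and 13.2 RPKM in the controls and 5.09, 3.34 and 3.22 RPKM after 7 d (log2 change -1.50 ± 0.21). For these 3 genes the highest 7 d heart was far below the lowest control heart. Gsta3, a glutathione transferase, went from 10.7, 11.8 and 9.57 RPKM without induction to 3.41, 3.35 and 2.48 RPKM at 7 d (log2 change -1.65 ± 0.14). Amy1, an amylase, fell from 7.36, 7.9 and 8.55 RPKM in the control hearts to 2.78, 1.91 and 1.8 RPKM at 7 d (log2 change -1.68 ± 0.17). Both belong to families of similar copies, and only uniquely mapped reads were counted. Gsta3 averaged 7.15 ± 1.02 RPKM (SD, n = 3) at 12 h and 19.9 ± 2.4 RPKM at 24 h of induction. The hour of harvest is not stated, and its part in the Gsta3 values was not tested. Levels of Pkd2l2, a polycystin family member, were 3.61, 2.99 and 2.75 RPKM in control hearts against 0.78, 0.63 and 0.54 RPKM at 7 d (log2 change -1.65 ± 0.15). Itgb6, an epithelial integrin subunit, measured 3.11, 2.19 and 2.98 RPKM in the controls and 0.69, 0.54 and 0.35 RPKM after 7 d (log2 change -1.67 ± 0.22). Enkur went from 4.3, 3.67 and 3.5 RPKM without induction to 0.68, 0.74 and 1.43 RPKM at 7 d (log2 change -1.61 ± 0.22). All control hearts lay above all 7 d hearts for these genes. Pkd2l2, Itgb6 and Enkur averaged below 1 RPKM at 7 d and entered the comparison through their control levels.

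The other genes among the 15 largest decreases had different known roles. Fam107a, an actin-binding protein induced by glucocorticoids, fell from 4.86, 8.54 and 5.88 RPKM in the control hearts to 0.57, 0.84 and 1.16 RPKM at 7 d (log2 change -2.34 ± 0.34, adjusted p = 7.2e-04). Levels of Per1, a repressor of the clock, were 20.2, 26.2 and 24.6 RPKM in control hearts against 4.19, 4.67 and 5.2 RPKM at 7 d (log2 change -2.22 ± 0.43, adjusted p = 0.0048). Ciart, a circadian transcriptional repressor, measured 11.5, 13.4 and 13.4 RPKM in the controls and 2.69, 2.42 and 3.19 RPKM after 7 d (log2 change -2.02 ± 0.32). All 3 fell well below every control heart. Fam107a averaged 2.6 ± 0.858 RPKM (SD, n = 3) at 12 h and 9.76 ± 3.75 RPKM at 24 h of induction. The part of the unstated hour of harvest in the Fam107a values was not tested. Fam107a averaged below 1 RPKM at 7 d and entered the comparison through its control level. Dbp, a clock-controlled transcription factor, went from 78.9, 103 and 104 RPKM without induction to 28.8, 30.7 and 31.4 RPKM at 7 d (log2 change -1.63 ± 0.35). Depp1, a target of FOXO factors, fell from 43.2, 77 and 39.4 RPKM in the control hearts to 12.6, 18.2 and 18.7 RPKM at 7 d (log2 change -1.62 ± 0.41, adjusted p = 0.023). Levels of Ddit4, an inhibitor of mTORC1 induced by stress and glucocorticoids, were 19.2, 38 and 23.2 RPKM in control hearts against 6.14, 9.02 and 9.39 RPKM at 7 d (log2 change -1.61 ± 0.46, adjusted p = 0.037). Control heart 2 was the highest for Depp1 and Ddit4, and the call of Ddit4 was lost without any single one of the 6 hearts. Ifi27l2a, an interferon-induced mitochondrial protein, measured 54.8, 55.5 and 29.9 RPKM in the controls and 13.2, 12.6 and 13.6 RPKM after 7 d (log2 change -1.74 ± 0.41, adjusted p = 0.015).

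The 7 d hearts were also compared with hearts after 72 h of induction, where 285 genes differed (2.68%), 205 of them higher (1.93%) and 80 lower (0.752%) at 7 d. This comparison shares the 7 d hearts with the first, and the median log2 difference of all genes was 0.107, against 0.005, -0.007 and -0.001 under median-ratio, upper-quartile and quantile scaling. The share of calls that were higher was 71.9%, and 42.7% to 49.4% under these scalings. Nmrk2 averaged 8.12 ± 2.52 RPKM (SD, n = 3) at 72 h, within the range of the control hearts, and Gdf15 averaged 1.39 ± 0.478 RPKM. Nppb stood at 115 ± 29.6 RPKM at 72 h, above its control hearts and far below its 7 d hearts. Mipep was at 22.7 ± 2.6 RPKM and Asb14 at 26.8 ± 1.33 RPKM at 72 h, between their control and 7 d values. Celf2 averaged 230.3 ± 26.4 RPKM at 72 h, and its log2 difference of 0.48 ± 0.26 from 7 d did not pass (adjusted p = 0.37).

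**Figure D3:**
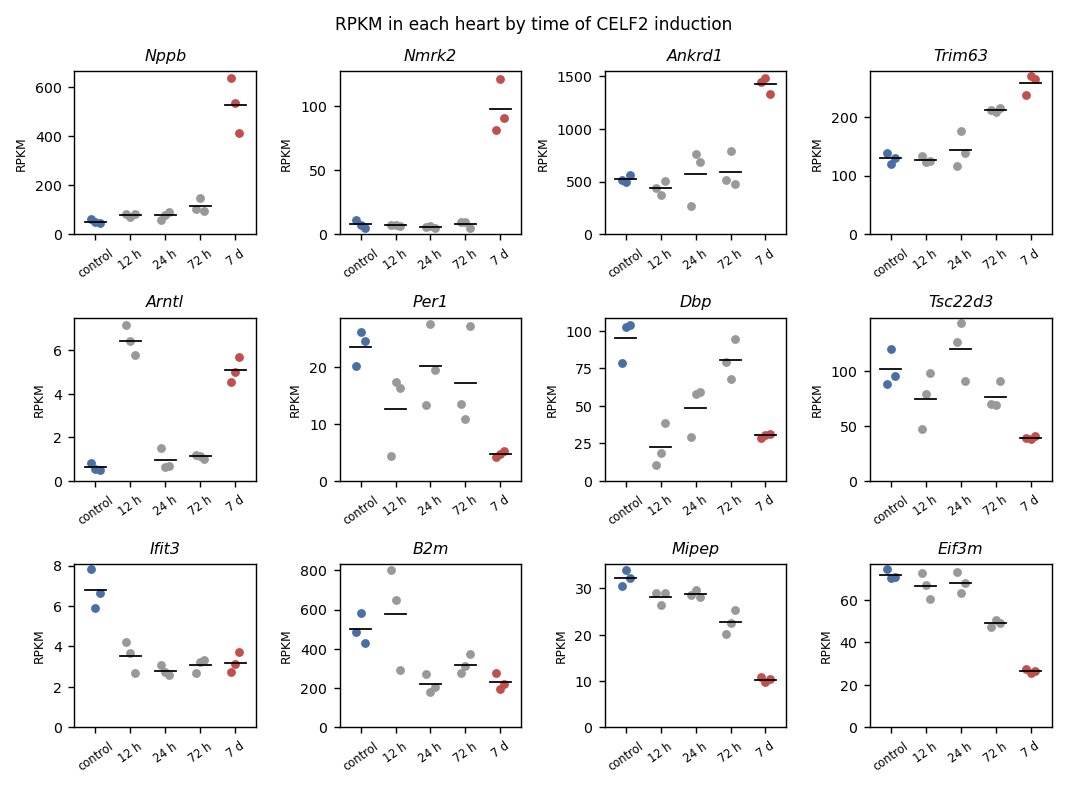
Each panel gives the RPKM of 1 gene in the 3 hearts of every group, with control hearts in blue, 12 h, 24 h and 72 h in grey, 7 d in red and a bar at each group mean. The means of Nppb, Nmrk2 and Ankrd1 are highest at 7 d, Mipep and Eif3m have moved part of the way by 72 h, Ifit3 is low at every time of induction, and Arntl is also high at 12 h.

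Genes of the cardiac stress program held the largest share of increases among the lists with at least 4 tested genes. The lists were chosen with earlier results of these data known, so this rank describes the list and is not a test of it. Of 20 tested, 11 were called higher and 2 lower, with a median log2 change of 0.61. Besides Nppb, Acta1, Nmrk2, Gdf15 and Tnfrsf12a, described above, they included nuclear and Z-disc proteins that respond to load. Ankrd1, a titin-binding protein that also enters the nucleus, went from 512, 499 and 558 RPKM without induction to 1445, 1486 and 1331 RPKM at 7 d (log2 change 1.44 ± 0.30, adjusted p = 0.0069). Rcan1, a feedback inhibitor of calcineurin, rose from 24, 25.7 and 31.9 RPKM in the control hearts to 60.7, 57.1 and 51 RPKM at 7 d (log2 change 1.04 ± 0.16). Levels of Csrp3, a muscle LIM protein, were 939, 918 and 889 RPKM in control hearts against 1311, 1472 and 1331 RPKM at 7 d (log2 change 0.58 ± 0.09). These were abundant mRNAs with groups that lay apart. Actc1, cardiac alpha-actin, measured 5370.2, 6158 and 5809 RPKM in the controls and 8570.2, 8830.1 and 9434 RPKM after 7 d (log2 change 0.63 ± 0.08). Ankrd23 and Lmcd1 had log2 changes of 0.73 and 0.49. Nppa, atrial natriuretic peptide, was at 22.4, 27.9 and 64.1 RPKM in the control hearts and 75.3, 125 and 215 RPKM at 7 d and did not pass (log2 change 1.87 ± 0.62, adjusted p = 0.074). The groups did not overlap for Nppa, whose level varied within both. The list of atrial markers, which includes Nppa, had none of 7 tested genes called by limma (1 at an unadjusted p below 0.05) and summed to 98 to 199 RPKM in control hearts and 147 to 388 RPKM at 7 d, and its part in the Nppa values was not tested. Called genes against the direction of the list were Myh7, given with the sarcomere genes, and Uchl1. Uchl1, a ubiquitin hydrolase, went from 11.6, 15.4 and 14.1 RPKM without induction to 6.76, 7.47 and 8.88 RPKM at 7 d (log2 change -0.79 ± 0.17). With Y-linked mRNA as a covariate 8 members were called higher, and with the title code 14.

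The MCAT element (CATTCC on either strand), the site of TEAD factors in muscle genes, is shown for 3 stress genes that rose together. RefSeq promoter entries on GRCm38.p6, which run from 250 bases before to 50 after a start, were searched. The windows lie before the starts of Nppb (chr4:147985765-147985830, plus strand), Acta1 (chr8:123894786-123894851, minus strand) and Ankrd1 (chr19:36119932-36119997, minus strand), with the element in capitals.
Nppb: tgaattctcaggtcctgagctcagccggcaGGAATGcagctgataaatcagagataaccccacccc
Acta1: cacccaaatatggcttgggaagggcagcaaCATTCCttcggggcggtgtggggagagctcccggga
Ankrd1: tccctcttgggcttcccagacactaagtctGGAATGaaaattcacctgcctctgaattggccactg
The element was found for 5 of the 11 stress genes called higher, 1 of 2 called lower and 2 of 6 not called that had an entry, and for 16.6% of all 27025 genes with an entry. A match describes letters and not a bound site.

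Sarcomere mRNAs moved in both directions. Thick filament genes gave 1 higher and 3 lower of 13 tested (median log2 change -0.07). Myh6, the alpha myosin heavy chain, fell from 7243, 7329.5 and 6890.0 RPKM in the control hearts to 5424, 5552 and 5767 RPKM at 7 d (log2 change -0.36 ± 0.09, adjusted p = 0.026). Levels of Myh7, the beta myosin heavy chain, were 2445, 2554 and 2381 RPKM in control hearts against 1764, 1872 and 1913 RPKM at 7 d (log2 change -0.41 ± 0.12, adjusted p = 0.044). Both calls were lost without any single one of the 6 hearts. Myh7b, a slow myosin, measured 33.6, 40.2 and 35 RPKM in the controls and 16.5, 21.1 and 19.1 RPKM after 7 d (log2 change -0.93 ± 0.17, adjusted p = 0.0038). Mybpc3, cardiac myosin-binding protein C, went from 801, 832 and 881 RPKM without induction to 1025, 1159 and 1207 RPKM at 7 d (log2 change 0.43 ± 0.12). Thin filament genes gave 3 higher and 1 lower of 18 tested (median 0.05), with Acta1 and Actc1 among them. Tpm2, beta-tropomyosin, rose from 19.9, 24.1 and 31.1 RPKM in the control hearts to 54.3, 72.8 and 80.2 RPKM at 7 d (log2 change 1.45 ± 0.36). Levels of Tnnc1, cardiac troponin C, were 3693, 3423 and 3199 RPKM in control hearts against 2941, 2533 and 2665 RPKM at 7 d (log2 change -0.34 ± 0.10). Tnnc1 lost its call under each of 3 scalings between hearts. Z-disc and costamere genes gave 4 higher and 2 lower of 28 tested (median 0.08), with Ankrd1 and Csrp3 highest. Vcl, vinculin, measured 28.8, 34.3 and 30.3 RPKM in the controls and 42.5, 43.7 and 41 RPKM after 7 d (log2 change 0.44 ± 0.12). Myoz2, a calcineurin-binding Z-disc protein, went from 431, 424 and 441 RPKM without induction to 360.0, 331 and 332 RPKM at 7 d (log2 change -0.34 ± 0.07). Cryab, a small heat shock protein, fell from 2467, 2663 and 2700.4 RPKM in the control hearts to 1921, 2049 and 2125 RPKM at 7 d (log2 change -0.36 ± 0.08). Pdlim1 had a log2 change of 0.35.

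Calcium handling and channel genes gave calls in both directions, beside 6.03% of all genes higher and 4.15% lower. Calcium cycling genes gave 1 higher and 2 lower of 21 tested (median 0.01), with Itpr1 the higher one. Levels of Pln, phospholamban, the inhibitor of the sarcoplasmic reticulum pump, were 1940.4, 2089 and 2274 RPKM in control hearts against 1594, 1621 and 1532 RPKM at 7 d (log2 change -0.41 ± 0.10). S100a1, a calcium sensor, measured 1056, 901 and 878 RPKM in the controls and 753, 643 and 636 RPKM after 7 d (log2 change -0.48 ± 0.11). Potassium channels gave 2 higher and none lower of 17 tested (median -0.02). Kcnj5, a G-protein-gated channel, went from 8.75, 7.52 and 8.52 RPKM without induction to 14.5, 13.5 and 15.4 RPKM at 7 d (log2 change 0.77 ± 0.14). Other channels and pumps gave 3 higher and 1 lower of 22 tested (median 0.19). Levels of Atp1b1, the beta subunit of the sodium pump, were 99.9, 122 and 136 RPKM in control hearts against 208, 213 and 227 RPKM at 7 d (log2 change 0.86 ± 0.12, adjusted p = 3.6e-04). Gja1, connexin 43, measured 72.2, 72.2 and 90 RPKM in the controls and 116, 126 and 136 RPKM after 7 d (log2 change 0.69 ± 0.13). Every 7 d heart stood above every control heart for these last 2 mRNAs.

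Signalling genes gave calls in both directions, beside 6.03% of all genes higher and 4.15% lower. Beta-adrenergic and G-protein signalling gave 2 higher and 2 lower of 22 tested (median 0.08). Rgs2, which limits signalling from Gq, fell from 16.9, 20.7 and 18.2 RPKM in the control hearts to 6.69, 7.79 and 8.07 RPKM at 7 d (log2 change -1.25 ± 0.16, adjusted p = 2.6e-04). Levels of Ppp1r1a, a phosphatase inhibitor, were 1.83, 2.76 and 2.29 RPKM in control hearts against 0.97, 0.66 and 0.67 RPKM at 7 d (log2 change -1.14 ± 0.18). Ppp1r1a was below 1 RPKM in every 7 d heart and entered the comparison through its control level. Prkar1a, a regulatory subunit of protein kinase A, measured 156, 159 and 181 RPKM in the controls and 235, 263 and 268 RPKM after 7 d (log2 change 0.63 ± 0.10). Pde4b, a phosphodiesterase, had a log2 change of 0.67. Calcineurin and NFAT genes gave 3 higher and 1 lower of 11 tested, with Rcan1, Ppp3cb and Ppp3r1 higher, and the changes of the calcineurin subunits Ppp3cb and Ppp3r1 (log2 changes 0.36 and 0.48) did not pass under any of the 3 scalings. MAP kinase and hypertrophic signalling genes gave 1 higher and 1 lower of 21 tested (median -0.03). Mapk14, p38 alpha, went from 20.5, 19.5 and 21 RPKM without induction to 14.4, 12.8 and 13.9 RPKM at 7 d (log2 change -0.55 ± 0.11, adjusted p = 0.0054). Hbegf, a growth factor of the EGF family, rose from 8.93, 9.62 and 9.42 RPKM in the control hearts to 12.8, 17.5 and 17.1 RPKM at 7 d (log2 change 0.72 ± 0.16). Cardiac transcription factors gave none higher and 2 lower of 26 tested (median 0.05). Levels of Tbx5, a T-box factor of heart development, were 13.3, 16.5 and 17.1 RPKM in control hearts against 7.8, 8.48 and 11.9 RPKM at 7 d (log2 change -0.72 ± 0.18). Klf15, a metabolic regulator induced by glucocorticoids, measured 17.7, 23.9 and 26.3 RPKM in the controls and 11.9, 14.9 and 13.6 RPKM after 7 d (log2 change -0.72 ± 0.21). Immediate early genes gave none higher and 1 lower of 19 tested (Klf6, log2 change -0.58).

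Clock genes differed between 7 d and control hearts in opposite directions. Of 22 tested, 3 were higher and 8 lower (median -0.42). Arntl and Nfil3 were among the higher genes, and the period genes and the clock-controlled factors among the lower ones. Nfil3, a repressor opposed to Dbp, rose from 4.36, 5.54 and 4.79 RPKM in the control hearts to 6.84, 7.8 and 8.47 RPKM at 7 d (log2 change 0.61 ± 0.15). Levels of Per2, a period protein, were 6.47, 7.67 and 8.91 RPKM in control hearts against 2.39, 2.34 and 2.5 RPKM at 7 d (log2 change -1.48 ± 0.21). The hearts of the groups lay apart in each. Per3 measured 8.95, 8.67 and 7.19 RPKM in the controls and 4.3, 4.42 and 3.42 RPKM after 7 d (log2 change -0.95 ± 0.15). Tef, a factor related to Dbp, went from 35.6, 45 and 40.9 RPKM without induction to 22.4, 23.1 and 21.1 RPKM at 7 d (log2 change -0.85 ± 0.13). Usp2, a rhythmic deubiquitinase, fell from 57, 66.7 and 64.5 RPKM in the control hearts to 30.2, 31.4 and 36.8 RPKM at 7 d (log2 change -0.93 ± 0.16, adjusted p = 0.0019). Cry2 had a log2 change of -0.63 ± 0.18. Nr1d1, a repressor of Arntl, was at 43.5, 46.1 and 52.8 RPKM in the control hearts and 39.3, 46 and 54.6 RPKM at 7 d and did not pass (log2 change -0.03 ± 0.30, adjusted p = 0.97). Arntl was also high at 12 h (6.45 ± 0.706 RPKM) and not at 24 h (0.943 ± 0.482 RPKM). The hour of harvest is not stated, and its part in these values was not tested.

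The E-box CACGTG, where BMAL1 and CLOCK bind, was found in the promoter entries of 3 of the 7 clock genes called lower, 2 of 9 not called and 0 of 2 called higher that had one, and for 8.09% of all 27025 genes. Windows are shown for the 3 lower genes, with 1 E-box in capitals, before the starts of Per1 (chr11:69098753-69098818, plus strand), Tef (chr15:81802516-81802581, plus strand) and Ciart, whose entry holds 3 copies (chr3:95882237-95882302, minus strand), on GRCm38.p6.
Per1: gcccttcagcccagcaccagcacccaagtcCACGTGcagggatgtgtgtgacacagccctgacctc
Tef: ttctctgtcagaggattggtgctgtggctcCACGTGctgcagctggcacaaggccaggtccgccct
Ciart: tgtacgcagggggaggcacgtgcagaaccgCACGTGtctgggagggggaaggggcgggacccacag

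Genes induced by glucocorticoids held the largest share of decreases among the lists with at least 4 tested genes. This rank too is descriptive, since the lists were chosen with earlier results of these data known. Of 18 tested, none was higher and 9 were lower, 17 had a negative change and the median was -0.86. Levels of Tsc22d3, the glucocorticoid-induced leucine zipper, were 88.5, 120.2 and 95.3 RPKM in control hearts against 39, 37.8 and 40.7 RPKM at 7 d (log2 change -1.35 ± 0.23, adjusted p = 0.0021). Sgk1, a kinase of sodium transport and survival, measured 28.1, 34.4 and 25.3 RPKM in the controls and 15.2, 14.5 and 13.9 RPKM after 7 d (log2 change -0.97 ± 0.20). Zbtb16, a zinc finger repressor, went from 16, 22.9 and 20.3 RPKM without induction to 8.25, 9.61 and 9.96 RPKM at 7 d (log2 change -1.04 ± 0.27). Control heart 2 had the most of each of these 3 mRNAs. Errfi1, an inhibitor of the EGF receptor, fell from 10.8, 12.9 and 9.43 RPKM in the control hearts to 4.71, 4.79 and 5.55 RPKM at 7 d (log2 change -1.05 ± 0.26). Levels of Mt1, a metallothionein, were 197, 218 and 196 RPKM in control hearts against 109, 121 and 165 RPKM at 7 d (log2 change -0.65 ± 0.16). Sult1a1 had a log2 change of -0.65, and Per1, Klf15 and Ddit4, given above, completed the 9. Fkbp5, a classical target of the receptor, was at 4.41, 6.11 and 6.27 RPKM in the control hearts and 3.46, 3.59 and 3.85 RPKM at 7 d and did not pass (log2 change -0.55 ± 0.30, adjusted p = 0.29). The hearts of Fkbp5 did not overlap, and those of Cdkn1a did. With Y-linked mRNA as a covariate 3 members were called lower, and with the title code 12. Zbtb16 averaged 6.77 ± 1.18 RPKM (SD, n = 3) at 12 h and 23.3 ± 0.412 RPKM at 24 h of induction. Tsc22d3 averaged 74.6 ± 26.0 and 120.2 ± 26.7 RPKM. Of the 9 genes called lower, Sgk1 and Errfi1 were not higher at 24 h than at 12 h. Per1 is also in the clock list. The hour of harvest is not stated, and its part in these values was not tested either.

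Some interferon response genes were lower at 7 d. Of 27 tested, 7 were called lower and none higher, 26 had a negative change and the median was -0.59. Ifit3, which assists Ifit1 in binding foreign RNA, measured 7.82, 5.89 and 6.64 RPKM in the controls and 2.74, 3.11 and 3.7 RPKM after 7 d (log2 change -0.98 ± 0.16, adjusted p = 0.0016). Ifit1 went from 3.77, 2.61 and 3.82 RPKM without induction to 1.36, 0.89 and 1.57 RPKM at 7 d (log2 change -1.14 ± 0.29). Oas2, an oligoadenylate synthetase, fell from 4.22, 3.64 and 4.3 RPKM in the control hearts to 1.83, 1.37 and 1.84 RPKM at 7 d (log2 change -1.07 ± 0.25). The groups lay apart for these genes. Levels of Oasl2, of the same family, were 5.78, 4.71 and 5.67 RPKM in control hearts against 2.26, 2.38 and 3.07 RPKM at 7 d (log2 change -0.94 ± 0.22). Irf9, the DNA-binding part of the interferon-activated complex, measured 15.1, 15.8 and 18 RPKM in the controls and 7.63, 7.61 and 8.99 RPKM after 7 d (log2 change -0.97 ± 0.25). Usp18, a deubiquitinase that limits interferon signalling, went from 2.83, 3.26 and 2.37 RPKM without induction to 0.82, 1.45 and 1.8 RPKM at 7 d (log2 change -0.87 ± 0.23). Rtp4 had a log2 change of -0.92. Rsad2 was the 1 member with a positive change. Rsad2, an antiviral enzyme, was at 2.01, 2.24 and 2.86 RPKM in the control hearts and 3.01, 4.28 and 3.93 RPKM at 7 d and did not pass (log2 change 0.56 ± 0.20, adjusted p = 0.092). In the comparison with 72 h, which shares the 7 d hearts, 0 members were called lower and the median was 0.12.

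All 15 antigen presentation genes tested had negative changes (median -0.80), of which 2 passed, and the list summed to 1222 to 1407 RPKM in control hearts and 623 to 666 RPKM at 7 d. B2m, the invariant chain of class I molecules, fell from 487, 580.1 and 432 RPKM in the control hearts to 274, 193 and 218 RPKM at 7 d (log2 change -1.13 ± 0.29, adjusted p = 0.024). Levels of H2-D1, a class I heavy chain, were 339, 419 and 389 RPKM in control hearts against 195, 202 and 206 RPKM at 7 d (log2 change -0.92 ± 0.27, adjusted p = 0.042). The H2-D1 call was lost without any single one of the 6 hearts, and H2 genes are similar in sequence. H2-K1, Tap2, Psmb9, Cd74 and H2-Aa did not overlap between groups and had log2 changes from -1.07 to -0.70 with adjusted p from 0.06 to 0.13. Against 72 h the median of the list was -0.02, with 0 members called lower. With Y-linked mRNA as a covariate 1 interferon gene and 0 antigen presentation genes were called lower, and with the title code 13 and 6.

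The core of the interferon-stimulated response element (TTTC, any 2 bases and TTTC, on either strand) is shown in capitals before the starts of 3 of these genes, Ifit1 (chr19:34640774-34640843, plus strand), Ifit3 (chr19:34583377-34583446, plus strand) and B2m (chr2:122147518-122147587, plus strand), on GRCm38.p6.
Ifit1: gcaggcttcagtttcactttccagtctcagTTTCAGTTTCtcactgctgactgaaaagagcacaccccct
Ifit3: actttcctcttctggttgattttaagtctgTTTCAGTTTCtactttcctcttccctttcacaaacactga
B2m: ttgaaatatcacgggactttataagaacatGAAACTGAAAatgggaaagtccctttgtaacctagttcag
It was found for 2 of the 4 interferon genes called lower and 11 of the 17 not called that had an entry, for 1 of 2 antigen presentation genes called lower and 1 of 10 not called, and for 3.99% of all 27025 genes.

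Markers of other cells were measured beside these genes. Macrophage markers gave none higher and 1 lower of 17 tested (Lyve1, log2 change -0.65) and summed to 204 to 221 RPKM in control hearts and 156 to 210.1 RPKM at 7 d. Lymphocyte markers were all below the minimum level and summed to 1.52 to 2.59 RPKM in control hearts and 1.96 to 3.02 RPKM at 7 d. Fibroblast markers gave none higher and 2 lower of 13 tested (Gsn and Fbln1, log2 changes -0.48 and -0.57) and summed to 1275 to 1419 RPKM in control hearts and 982 to 1225 RPKM at 7 d. Endothelial markers gave none higher and 1 lower of 16 tested (Flt1, log2 change -0.36) and summed to 1449 to 1482 RPKM in control hearts and 1230.2 to 1484 RPKM at 7 d. Smooth muscle and pericyte markers had none of 12 tested genes called by limma (1 at an unadjusted p below 0.05) and summed to 786 to 1129 RPKM in control hearts and 946 to 1373 RPKM at 7 d. Adipocyte markers gave 1 higher and 4 lower of 9 tested and summed to 955 to 1046 RPKM in control hearts and 869 to 951 RPKM at 7 d. Cfd, adipsin, measured 8.05, 6.12 and 5.73 RPKM in the controls and 2.22, 2.07 and 3.38 RPKM after 7 d (log2 change -1.23 ± 0.24). Car3, a carbonic anhydrase of fat and muscle, went from 8.05, 8.79 and 4.78 RPKM without induction to 3.71, 3.09 and 3.49 RPKM at 7 d (log2 change -0.93 ± 0.24). Cidea, a lipid droplet protein, went against the list with a log2 change of 0.33. The calls of Cidea, Gsn and Flt1 were each lost without any single one of the 6 hearts. Adipoq, adiponectin, was at 2.01, 1.88 and 0.79 RPKM in the control hearts and 1.34, 0.69 and 0.6 RPKM at 7 d and did not pass (log2 change -0.56 ± 0.26, adjusted p = 0.2). The neutrophil and red cell list had none of 2 tested genes called by limma (0 at an unadjusted p below 0.05), and the nerve, glia and mesothelial list none of 4 tested genes called by limma (1 at an unadjusted p below 0.05). The part of these cells in the changes was not tested, and in whole ventricle fewer cells of a type and less mRNA per cell cannot be told apart.

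**Figure D4:**
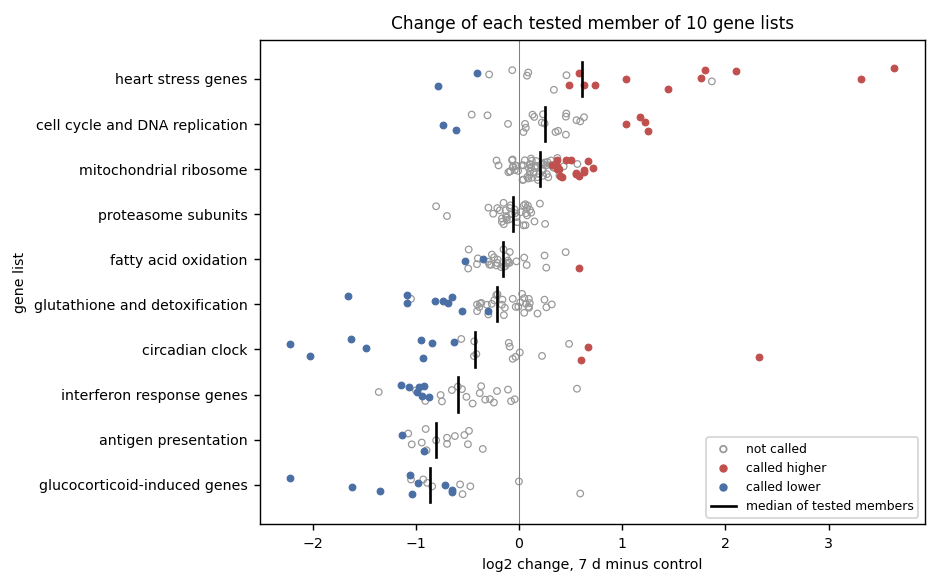
Each point is a tested gene of 1 of 10 lists, placed by its log2 change at 7 d relative to control hearts, with called genes filled and a bar at the list's median. Heart stress genes spread to the right (median 0.61), mitochondrial ribosome genes form a narrow cloud just right of 0 (median 0.20), and interferon, antigen presentation and glucocorticoid-induced genes lie mostly to the left.

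Some mitochondrial ribosomal protein genes rose by small amounts. Of 73 tested, 16 were called higher and none lower, 60 had a positive change and the median was 0.20. Mrpl9, of the large subunit, rose from 17.7, 18.8 and 18.9 RPKM in the control hearts to 27.6, 31.7 and 33.3 RPKM at 7 d (log2 change 0.72 ± 0.11, adjusted p = 0.0012). Levels of Mrpl19 were 12.9, 16.3 and 14.2 RPKM in control hearts against 23.4, 24.4 and 21.7 RPKM at 7 d (log2 change 0.67 ± 0.12). Mrpl46 measured 19.3, 22.1 and 21.5 RPKM in the controls and 31.5, 33.5 and 33 RPKM after 7 d (log2 change 0.63 ± 0.10). These changes were small, and the hearts of the groups did not overlap. Mrps36, first assigned to the small subunit, went from 67.3, 70.3 and 69.6 RPKM without induction to 96.4, 102 and 106 RPKM at 7 d (log2 change 0.55 ± 0.09). Mrps18b, of the small subunit, rose from 28.3, 32.9 and 32.5 RPKM in the control hearts to 44.6, 49.8 and 51.6 RPKM at 7 d (log2 change 0.63 ± 0.14). None of the 73 differed between 7 d and 72 h, and with Y-linked mRNA as a covariate 5 were called higher. The cytosolic ribosome gave 1 higher and 1 lower of 76 tested (median 0.08), and its calls were a pair of paralogs. Levels of Rpl3l, the muscle form of ribosomal protein L3, were 176, 209 and 182 RPKM in control hearts against 95.2, 109 and 110.3 RPKM at 7 d (log2 change -0.85 ± 0.13, adjusted p = 8.0e-04). Rpl3, the general form, measured 130.0, 141 and 139 RPKM in the controls and 159, 201 and 205 RPKM after 7 d (log2 change 0.45 ± 0.12, adjusted p = 0.03).

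Calls among mitochondrial enzymes were in both directions. Citric acid cycle genes gave 4 higher and 2 lower of 24 tested (median 0.17). Cs, citrate synthase, went from 370.0, 366 and 426 RPKM without induction to 531, 515 and 566 RPKM at 7 d (log2 change 0.47 ± 0.13). Dlst and Dld, of the oxoglutarate dehydrogenase complex, had log2 changes of 0.44 and 0.47. Sdhc, an anchor of succinate dehydrogenase, fell from 293, 358 and 369 RPKM in the control hearts to 177, 218 and 238 RPKM at 7 d (log2 change -0.69 ± 0.13, adjusted p = 0.0039). Idh2 was also lower (log2 change -0.42). Complex I gave 1 higher and 2 lower of 36 tested, with Ndufa10 higher (log2 change 0.33) and Ndufc2 among the lower (log2 change -0.47). Complexes III to V gave none higher and 2 lower of 38 tested, the paralogs Cox7a1 and Cox7a2 (log2 changes -0.35 and -0.55). Import, protease and dynamics genes gave 2 higher and 3 lower of 31 tested. Levels of Mfn1, a fusion GTPase, were 93.7, 93.6 and 104 RPKM in control hearts against 74.1, 67.3 and 66.5 RPKM at 7 d (log2 change -0.49 ± 0.09). Afg3l2, a protease of the inner membrane, measured 45.6, 49.8 and 52.9 RPKM in the controls and 67.9, 68 and 67 RPKM after 7 d (log2 change 0.45 ± 0.08). Timm23 and Ckmt2, mitochondrial creatine kinase, had log2 changes of 0.29 and -0.34.

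Genes of fuel metabolism gave calls in both directions, beside 6.03% of all genes higher and 4.15% lower. Fatty acid oxidation genes gave 1 higher and 2 lower of 31 tested, with 25 negative changes and a median of -0.15. Hadh, a dehydrogenase of beta-oxidation, went from 115, 118 and 134 RPKM without induction to 182, 187 and 180.3 RPKM at 7 d (log2 change 0.58 ± 0.10, adjusted p = 0.0018). Of the lower genes, Eci1 had a log2 change of -0.34 and Dgat2 of -0.53. Dgat2 is an enzyme of triglyceride synthesis and not of oxidation, though the list holds it. Both calls were lost with Y-linked mRNA as a covariate, and that of Dgat2 also without any single control heart. Targets of PPAR alpha, a receptor for fatty acids, gave 1 higher and 4 lower of 24 tested (median -0.25), with Cidea the higher one. Levels of Ucp3, an uncoupling protein, were 18.1, 20.2 and 13.7 RPKM in control hearts against 5.58, 6.66 and 7.78 RPKM at 7 d (log2 change -1.31 ± 0.30). Plin2, a lipid droplet coat, measured 35.5, 30 and 30.1 RPKM in the controls and 19, 18.6 and 19.7 RPKM after 7 d (log2 change -0.72 ± 0.11). The 7 d hearts lay below all control hearts in both genes. Pdk4, which fasting and fatty acids induce, was at 84.1, 65.9 and 60.6 RPKM in the control hearts and 41.3, 27.8 and 45.2 RPKM at 7 d and did not pass (log2 change -0.89 ± 0.33, adjusted p = 0.11).

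Glucose handling genes gave 3 higher and 4 lower of 34 tested (median 0.04). Ugp2, which makes UDP-glucose for glycogen, went from 87.2, 81.5 and 99 RPKM without induction to 211, 182 and 179 RPKM at 7 d (log2 change 1.09 ± 0.12, adjusted p = 1.1e-04). Pfkp, the platelet form of phosphofructokinase, rose from 14.2, 18.9 and 15.8 RPKM in the control hearts to 30.3, 32.7 and 30.8 RPKM at 7 d (log2 change 0.93 ± 0.11). Levels of Hk1, a hexokinase, were 42, 44.4 and 47.9 RPKM in control hearts against 61.3, 65.2 and 75.9 RPKM at 7 d (log2 change 0.58 ± 0.12). These were the higher genes, and Amy1, Pfkfb1, Phkg1 and Mpc1 the lower ones. Pfkfb1, which sets the level of an activator of phosphofructokinase, measured 6.91, 7.33 and 8.22 RPKM in the controls and 2.71, 2.27 and 2.79 RPKM after 7 d (log2 change -1.37 ± 0.15). Phkg1, muscle phosphorylase kinase, went from 28.7, 40 and 36.8 RPKM without induction to 13.5, 16.1 and 21.3 RPKM at 7 d (log2 change -1.04 ± 0.17). Mpc1, a subunit of the mitochondrial pyruvate carrier, fell from 404, 408 and 458 RPKM in the control hearts to 243, 229.7 and 223 RPKM at 7 d (log2 change -0.87 ± 0.16, adjusted p = 0.0031). The hearts of the groups lay apart in each. NAD genes gave 3 higher and 1 lower of 15 tested (median 0.21), with Nmrk2 far above the others. Levels of Parp3, a mono-ADP-ribosyltransferase, were 11.8, 16 and 17.4 RPKM in control hearts against 24.7, 30.4 and 32.7 RPKM at 7 d (log2 change 0.94 ± 0.17). Nmnat3, a mitochondrial NAD synthase, measured 4.44, 5.89 and 6.8 RPKM in the controls and 3.16, 3.65 and 3.59 RPKM after 7 d (log2 change -0.63 ± 0.17). Naprt had a log2 change of 0.59. Nampt, the usual route of NAD salvage, was at 49.1, 39.7 and 47.9 RPKM in the control hearts and 42, 29.6 and 31.5 RPKM at 7 d and did not pass (log2 change -0.41 ± 0.17, adjusted p = 0.15).

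Calls among glutathione and detoxification genes were all in the lower direction. Of 41 tested, 9 were called lower and none higher (median -0.21, 28 negative). Gstm1, a glutathione transferase, went from 227, 210.1 and 214 RPKM without induction to 155, 141 and 147 RPKM at 7 d (log2 change -0.55 ± 0.10). Gstm2 fell from 113, 122 and 107 RPKM in the control hearts to 73.3, 71.8 and 67.2 RPKM at 7 d (log2 change -0.68 ± 0.09). Levels of Ephx1, microsomal epoxide hydrolase, were 28, 34.2 and 33.1 RPKM in control hearts against 13.8, 14.8 and 15.5 RPKM at 7 d (log2 change -1.08 ± 0.14, adjusted p = 3.0e-04). Gstm1 and Gstm2 are similar in sequence. Ephx1 averaged 17.3 ± 2.7 RPKM (SD, n = 3) at 12 h and 28.1 ± 1.2 RPKM at 24 h of induction. The part of the unstated hour of harvest in the Ephx1 values was not tested. Cyp2e1, a cytochrome P450, measured 2.43, 2.86 and 2.29 RPKM in the controls and 0.78, 0.7 and 1.39 RPKM after 7 d (log2 change -1.08 ± 0.22). Gstt1 and Gstt2 had log2 changes of -0.73 and -0.82. Sod1, superoxide dismutase, was lower by a small log2 change of -0.30 ± 0.09 and lost its call under median-ratio and upper-quartile scaling. Selenoprotein genes gave 2 higher and 1 lower of 27 tested, with Msrb1 and Pstk higher (log2 changes 0.41 and 0.32), and Pstk lost its call under all 3 scalings and without any single one of the 6 hearts. Trnau1ap, which binds the tRNA of selenocysteine, went from 22.4, 20.2 and 20.1 RPKM without induction to 9.15, 9.59 and 10.4 RPKM at 7 d (log2 change -1.07 ± 0.09, adjusted p = 1.2e-05).

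Retinoid genes gave 1 higher and 1 lower of 16 tested (Rarb and Rbp4, log2 changes 0.50 and -0.65). Cholesterol and lipid synthesis gave 1 higher and 2 lower of 24 tested. Fasn, fatty acid synthase, fell from 6.06, 10.3 and 6.78 RPKM in the control hearts to 3.1, 3.63 and 4.55 RPKM at 7 d (log2 change -0.93 ± 0.21). Levels of Fdft1, squalene synthase, were 29.7, 26.9 and 32 RPKM in control hearts against 21.3, 21 and 20.2 RPKM at 7 d (log2 change -0.49 ± 0.11). Lss, lanosterol synthase, measured 0.87, 0.75 and 0.64 RPKM in the controls and 1.82, 1.8 and 1.42 RPKM after 7 d (log2 change 0.80 ± 0.15). The last 2 enzymes, which act in turn in the sterol pathway, moved in opposite directions. Lss was below 1 RPKM in every control heart and entered the comparison through its 7 d level.

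Genes of RNA processing, in which CELF proteins act, gave calls in both directions, beside 6.03% of all genes higher and 4.15% lower. Splicing regulators gave 5 higher and 4 lower of 49 tested (median -0.01). Rbm3, a cold-induced RNA-binding protein, went from 72.7, 72.4 and 76.4 RPKM without induction to 35.9, 43.9 and 50.5 RPKM at 7 d (log2 change -0.77 ± 0.11, adjusted p = 7.2e-04). Pcbp2, a poly(C)-binding protein, fell from 171, 169 and 172 RPKM in the control hearts to 115, 113 and 125 RPKM at 7 d (log2 change -0.53 ± 0.10). Levels of Rbfox1, a splicing factor of muscle and neurons, were 9.74, 9.82 and 12.3 RPKM in control hearts against 6.53, 5.61 and 6.66 RPKM at 7 d (log2 change -0.71 ± 0.17). The groups did not overlap in these genes. Rbm38 measured 62.9, 70.5 and 75.9 RPKM in the controls and 35.3, 44.7 and 47.3 RPKM after 7 d (log2 change -0.72 ± 0.21). The Rbm38 call was lost without any single one of the 6 hearts. Tial1, Hnrnpll, Hnrnph1, Hnrnpa2b1 and Rbm5 were higher by log2 changes of 0.32 to 0.47, and Hnrnph1, Hnrnpa2b1 and Rbm5 lost their calls under all 3 scalings. mRNA decay factors gave 1 higher and 3 lower of 54 tested (median -0.03). Tob2, which recruits a deadenylase, went from 18.9, 20 and 22.4 RPKM without induction to 7.62, 8.48 and 8.12 RPKM at 7 d (log2 change -1.29 ± 0.26, adjusted p = 0.0059). Pan2, the catalytic subunit of another deadenylase, fell from 6.35, 7.03 and 5.64 RPKM in the control hearts to 3.87, 4.01 and 4.57 RPKM at 7 d (log2 change -0.55 ± 0.11). Pabpc4, a poly(A)-binding protein, had a log2 change of -0.44 and Upf2, of nonsense-mediated decay, 0.46. Upf2, the 1 higher gene, lost its call under all 3 scalings.

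Translation factors gave 4 higher and 1 lower of 45 tested (median 0.08). Levels of Eif3m, a subunit of the initiation factor eIF3, were 74.5, 70.4 and 70.7 RPKM in control hearts against 27.6, 25.5 and 26.4 RPKM at 7 d (log2 change -1.42 ± 0.09, adjusted p = 5.3e-07). At 72 h Eif3m was at 48.9 ± 1.53 RPKM. Eif3h, of the same complex, measured 119, 123 and 119 RPKM in the controls and 167, 156 and 157 RPKM after 7 d (log2 change 0.41 ± 0.07). Eif5, Eef1g and Eif4g1 were higher by 0.50, 0.52 and 0.36 on the log2 scale. Nucleocytoplasmic transport genes gave 2 higher and 1 lower of 40 tested. Xpo6, the exporter of actin from the nucleus, went from 15, 16.3 and 12 RPKM without induction to 4.97, 5.3 and 5.97 RPKM at 7 d (log2 change -1.33 ± 0.12, adjusted p = 1.2e-05). Xpo6 averaged 6.16 ± 0.269 RPKM at 72 h, and its log2 difference of -0.17 from 7 d did not pass (adjusted p = 0.49). Ipo13, an importin, rose from 25.3, 25 and 26.4 RPKM in the control hearts to 37.8, 41.9 and 41.7 RPKM at 7 d (log2 change 0.65 ± 0.12). Ran had a log2 change of 0.34.

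Genes of protein turnover and folding gave calls on both sides. Atrophy and autophagy genes gave 5 higher and 2 lower of 26 tested (median 0.01), Tnfrsf12a among the higher and Ddit4 and Klf15 the lower. Levels of Trim63, the muscle ubiquitin ligase MuRF1, were 139, 119 and 129.9 RPKM in control hearts against 237, 270.1 and 265 RPKM at 7 d (log2 change 0.99 ± 0.12, adjusted p = 2.2e-04). Trim55, its relative MuRF2, measured 20.8, 23.8 and 24.6 RPKM in the controls and 31.9, 30.8 and 32.1 RPKM after 7 d (log2 change 0.45 ± 0.10). The lysosomal cathepsins Ctsb and Ctsd rose by log2 changes of 0.46 and 0.36. The Ctsd call was lost without any single one of the 6 hearts, and the Ctsb call without any single control heart. ASB adaptors of ubiquitin ligases gave none higher and 3 lower of 12 tested, Asb14, Asb5 and Asb11. Asb11 went from 93.9, 88.3 and 92 RPKM without induction to 68.1, 70.7 and 61.5 RPKM at 7 d (log2 change -0.45 ± 0.10). Proteasome subunits had none of 36 tested genes called by limma (6 at an unadjusted p below 0.05), with a median of -0.05. Heat shock genes gave 4 higher and 3 lower of 28 tested. Dnajb1, a co-chaperone of Hsp70, fell from 22.6, 15.4 and 15.9 RPKM in the control hearts to 7.39, 7.67 and 7.14 RPKM at 7 d (log2 change -1.20 ± 0.17). Levels of Hsph1, a nucleotide exchange factor of Hsp70, were 29.3, 24.4 and 27.4 RPKM in control hearts against 18.4, 15.1 and 18.5 RPKM at 7 d (log2 change -0.63 ± 0.11). Hspb3, a small heat shock protein of muscle, measured 9.16, 10.5 and 9.03 RPKM in the controls and 16.2, 21.5 and 17.6 RPKM after 7 d (log2 change 0.91 ± 0.15). Hspa1l, a member of the Hsp70 family, went from 5.65, 7.14 and 6.82 RPKM without induction to 10.7, 10.7 and 12.9 RPKM at 7 d (log2 change 0.76 ± 0.13). Hspa9, the mitochondrial Hsp70, and Dnajb5 had log2 changes of 0.40 and 0.52, so the direction was not shared within the list.

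Among ATF4 and unfolded protein response genes, which gave 1 higher and 3 lower of 29 tested, Gdf15 was the 1 higher gene. Atf4, a stress-induced transcription factor, fell from 56.8, 61.3 and 51.9 RPKM in the control hearts to 43.1, 42.9 and 41 RPKM at 7 d (log2 change -0.41 ± 0.11). Levels of Slc3a2, a chain of an amino acid transporter, were 29.6, 27.4 and 26.6 RPKM in control hearts against 16.4, 14.9 and 16.5 RPKM at 7 d (log2 change -0.79 ± 0.15). Slc7a5, its partner, measured 1.41, 1.95 and 2.01 RPKM in the controls and 0.68, 0.76 and 0.96 RPKM after 7 d (log2 change -0.81 ± 0.19). With every 7 d heart below 1 RPKM, Slc7a5 entered the comparison through its control level. The Atf4 change was 0.023 with the title code and Y-linked mRNA both as covariates. Apoptosis and p53 target genes had none of 22 tested genes called by limma (6 at an unadjusted p below 0.05).

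Cell cycle and DNA replication genes gave 4 higher and 2 lower of 25 tested (median 0.25, 20 positive). Top2a, topoisomerase II alpha, went from 0.51, 0.52 and 1.1 RPKM without induction to 1.81, 2.3 and 2.96 RPKM at 7 d (log2 change 1.25 ± 0.22, adjusted p = 0.0029). Ccna2, a mitotic cyclin, rose from 0.66, 0.69 and 1.08 RPKM in the control hearts to 1.81, 2.19 and 3.92 RPKM at 7 d (log2 change 1.22 ± 0.24). Levels of Cdk1, its kinase, were 0.86, 1.35 and 1.33 RPKM in control hearts against 2.1, 3.57 and 4.53 RPKM at 7 d (log2 change 1.18 ± 0.27). Ccnb2, a B-type cyclin, measured 0.34, 0.63 and 0.88 RPKM in the controls and 1.05, 1.74 and 2.76 RPKM after 7 d (log2 change 1.04 ± 0.27). In all 4 genes the code A heart was the lowest of its group in both groups, and the third 7 d heart was the highest. Top2a, Ccna2 and Ccnb2 averaged below 1 RPKM in control hearts and entered the comparison through their 7 d levels. Ccnd2, a G1 cyclin, went from 20.3, 26.8 and 22.7 RPKM without induction to 14, 16.5 and 14.5 RPKM at 7 d (log2 change -0.61 ± 0.16). Ccne1, a cyclin of entry into S phase, fell from 1.06, 1.97 and 1.38 RPKM in the control hearts to 0.55, 0.59 and 0.88 RPKM at 7 d (log2 change -0.73 ± 0.17). Ccne1 entered the comparison through its control level. Replication genes differed less, Mcm2 being at 1.79, 2.22 and 2.16 RPKM in the control hearts and 1.69, 2 and 2.92 RPKM at 7 d and Pcna at 37.6, 31.7 and 32.3 RPKM in the control hearts and 35.4, 32.4 and 36.7 RPKM at 7 d. With Y-linked mRNA as a covariate none of the list was called, and with the title code 2 were higher and 3 lower.

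The element TTTGAA, known as CHR in promoters of late cell cycle genes, is shown in capitals before the starts of Top2a (chr11:99024333-99024398, minus strand) and Cdk1 (chr10:69352948-69353013, minus strand) on GRCm38.p6.
Top2a: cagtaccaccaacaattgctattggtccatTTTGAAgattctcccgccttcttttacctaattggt
Cdk1: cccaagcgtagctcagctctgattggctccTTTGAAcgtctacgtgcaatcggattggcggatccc
It was found, on either strand, for 3 of the 3 genes called higher that had an entry, 1 of 15 not called and 0 of 1 called lower, and for 20.2% of all 27025 genes.

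Extracellular matrix genes gave calls in both directions, beside 6.03% of all genes higher and 4.15% lower. Collagens gave 2 higher and 1 lower of 19 tested (median 0.09), Colq and Col5a3 higher and Col14a1 lower. Levels of Col5a3 were 2.59, 2.8 and 2.88 RPKM in control hearts against 3.59, 7.84 and 8.44 RPKM at 7 d (log2 change 1.05 ± 0.27). The first 7 d heart lay near the control hearts for Col5a3. Col5a3 averaged 7.8 ± 2.12 RPKM (SD, n = 3) at 12 h and 1.56 ± 0.315 RPKM at 24 h of induction. Col1a1, the main fibrillar chain, was at 49.4, 51.5 and 55.3 RPKM in the control hearts and 37.8, 57.8 and 76.3 RPKM at 7 d, and the groups overlapped. Matrix remodelling and TGF-beta genes gave none higher and 1 lower of 34 tested. Timp3, an inhibitor of metalloproteinases, measured 48, 47.1 and 58.9 RPKM in the controls and 24.5, 23.3 and 28.5 RPKM after 7 d (log2 change -0.99 ± 0.19, adjusted p = 0.0044). Timp3 averaged 27.1 ± 2.2 RPKM (SD, n = 3) at 12 h and 67.7 ± 11.9 RPKM at 24 h of induction. The part of the unstated hour of harvest in the values of Col5a3 and Timp3 was not tested. Integrins and laminins gave 1 higher and 2 lower of 22 tested, with Itgb6 and Lamb3 lower and Itga3 higher (log2 changes -0.79 for Lamb3 and 0.57 for Itga3). The Itga3 call was lost without any single one of the 6 hearts. Annexins gave 1 higher and none lower of 10 tested. Anxa5, which binds exposed phosphatidylserine, went from 90.6, 80.4 and 81 RPKM without induction to 158, 173 and 160.2 RPKM at 7 d (log2 change 0.96 ± 0.09, adjusted p = 1.9e-05). Inflammation genes gave 2 higher and none lower of 24 tested. Ccl2, a chemokine of monocytes, rose from 1.48, 1.33 and 1.6 RPKM in the control hearts to 4.31, 2.81 and 2.97 RPKM at 7 d (log2 change 0.95 ± 0.24). Levels of Ccl7, a related chemokine, were 1.28, 1.56 and 0.52 RPKM in control hearts against 3.62, 3.04 and 2.64 RPKM at 7 d (log2 change 1.20 ± 0.28). The list of sex chromosome genes had none of 8 tested genes called by limma (6 at an unadjusted p below 0.05). Its largest log2 change was 4.11, and Y-linked mRNA was found in 1 of 3 control hearts and 3 of 3 hearts at 7 d.

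**Figure D5:**
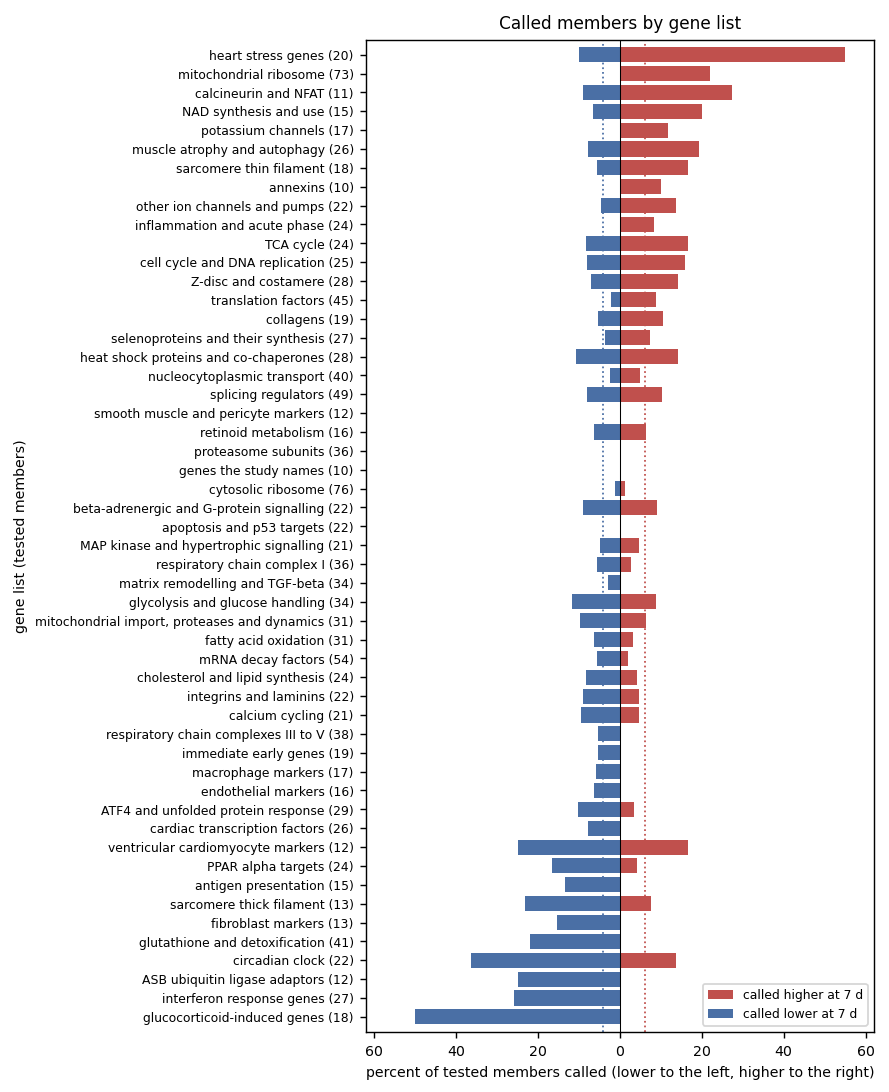
Bars give the percent of tested members of each list with at least 10 tested genes that were called higher (red, to the right) or lower (blue, to the left) at 7 d, with the number tested in brackets and dotted lines at the shares of all genes, 6.03% and 4.15%. Heart stress genes reach the farthest right (11 of 20) and glucocorticoid-induced genes the farthest left (9 of 18). The lists were chosen with earlier results of these data known.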

How the data were processed

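Poly(A)+ RNA of 15 ventricles was sequenced in strand-specific paired-end libraries. The authors mapped reads to mm9 (Bowtie and TopHat, with no version in the submitters' processing notes) and deposited RPKM values per RefSeq gene, counted over constitutive coding sequence and scaled to uniquely mapped reads outside ribosomal and mitochondrial RNA. Depth is not stated, and values with 2 decimals did not give whole reads back, so precision is described by the spread between hearts. The members and the 60 gene lists were chosen with earlier results of these data known.

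Groups came from titles, genotypes and time points. Values were transformed to log2(RPKM + 0.5), and limma (version 3.58.1, R 4.3.3) with a mean-variance trend was fitted to 5 group means over 15 hearts and 10638 genes, those averaging 1 RPKM or more in the 6 hearts compared. Genes with a Benjamini-Hochberg adjusted p below 0.05 were called. All 15 hearts shared 1 estimate of the spread, since 3 hearts per group give a poor one. The fit was tested on simulated data.

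Genes were named if they were CELF or MBNL genes or named by the study, among the 15 largest increases or 15 largest decreases of called genes whose hearts did not overlap, among the 4 of their list that had the lowest adjusted p, or called against the direction of their list. Other members were named with their values, and a few counted members are not reported here by name. Alternatives were other pseudocounts (0.1 and 1), minimum levels, scalings, covariates, library quality weights, a fit of the compared hearts alone and leaving out each heart. Positions are mm9 and promoter sequences RefSeq GRCm38.p6. Isoform values, binding data and other tissues were not analysed here. No pair of libraries held identical values.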

Additional observations from a re-analysis of the deposited data

Results flagged for a closer look

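For 20 of the 30 genes with the largest changes, the level at 7 d also differed from that at 72 h of induction by limma, in a comparison that shares the 7 d hearts. Among the genes that rose, the log2 difference between 7 d and 72 h was 3.54 for Nmrk2, 2.21 for Nppb, 2.13 for Gdf15, 2.12 for Scgb1c1, 1.79 for Arntl and 1.67 for Acta1. It was 1.41 for Ankrd2, 1.35 for Tnfrsf12a, 1.23 for Colq, 1.13 for Tmem171, 1.04 for Ccdc63 and 0.88 for B4galt6. Among the genes that fell, it was -1.7 for Ciart, -1.26 for Itgb6, -1.14 for Gsta3, -1.1 for Mipep, -1.01 for Amy1, -1.01 for Asb5, -0.91 for Pkd2l2 and -0.86 for Asb14. Groups of 3 hearts were not tested for single hearts that stand apart.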

How the results depend on the processing

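Against 642 higher and 441 lower genes (59.3% of calls higher), the fit with Y-linked mRNA as a covariate called 247 and 172, and with the title code 794 genes were lower and the share of higher calls was 41%. With both covariates 72 and 90 were called (44.4% higher). Under upper-quartile scaling 687 were lower (46.7% higher). Library quality weights, estimated gene by gene, gave 1956 and 1381. Between 72 h and 7 d, 285 genes in the reported fit became 59 in a fit of these 6 hearts, 718 with the title code, 736 with both covariates and 5052 with quality weights. There, 71.9% of calls were higher at 7 d, and 45.6%, 42.7% and 49.4% under the 3 scalings.

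Leaving out 1 heart gave 325 to 516 higher genes, 214 to 316 lower genes, 58 (without the second 7 d heart) to 661 (without the third 72 h heart) genes between 72 h and 7 d, and a Celf2 ratio of 31.03 to 36.26. The Celf2 ratio was 42.03 within code A. With both covariates the log2 change was 0.023 for Atf4, -0.049 for Cs and -0.017 for Eif4g1, each turned in sign. Of 1083 calls, 632 higher and 436 lower kept their sign under every one of up to 19 alternatives in which the gene was tested. Counts of list members stayed within 1.5 times in 1645 of 2280 cases. These include cases with no call in either setting, which agree by construction, so the share overstates how stable the counts were. The cause of these differences was not tested. No paired analysis was possible because the labels carry no replicate numbers that link control and induced hearts. Changes near or below the median standard error of 0.16 cannot be told from the spread with 3 hearts per group. Some larger changes did not pass either, such as the log2 change of 0.33 for Mbnl2.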
